A study of Oryza sativa Indica Group with 12 samples.

Results

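The genes described are 6 members of the calcium-dependent protein kinase (CDPK) family of rice, CPK2, CPK6, CPK21, CPK22, CPK23 and CPK29. They were chosen by their signal on these same arrays, as kinases of pollen. Their stage levels and every difference between stages of them are therefore a description, and nothing is read from tests of these genes. The 6 genes were found by name through the table that pairs probe sets with genes, out of 20 CDPK genes measured and 17905 genes paired with a probe set, and each is read through its brightest probe set. The arrays held RNA from anthers of wild-type indica rice, cultivar IR64, with no treatment, at 4 stages with 3 arrays each. PMA were pre-meiotic anthers 350 to 450 um long, MA were meiotic anthers of 500 to 850 um, SCP were anthers of 900 to 950 um with single-celled pollen, and TPA were anthers of 2000 to 2500 um with tri-nucleate pollen. Each array held anthers bulked from several plants.

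CDPKs carry a kinase domain and a calmodulin-like calcium-binding domain in 1 protein, joined by a stretch that keeps the kinase off until calcium binds. A rise of calcium in the cell is thereby turned directly into phosphorylation of target proteins. Pollen tubes grow at their tip under a steep calcium gradient, and CDPKs act there on ion channels and on the growth machinery, as known mostly from Arabidopsis and petunia.

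Values are GC-RMA signals, a background-corrected array intensity on a linear scale, and a signal at or under 10 was taken as background, within which values have no order. The 12 arrays had medians of 6.83 to 7.33 and 40.3 to 41.1% of their rice probe sets over 10, but the upper quartile was 64.2 to 72.7 in TPA against 99.1 to 115 in the other stages. Between arrays of a stage, r over probe sets was 0.967 to 0.984 in TPA and 0.989 to 0.998 in the others. The summed signal of the 3 pollen markers EXPB9, EXPB10 (cell wall loosening beta-expansins of grass pollen) and MST5 (a sugar transporter) was 15.1 to 19.1 in PMA, 69.7 to 94.9 in MA, 14.96 to 16.08 in SCP and 46517 to 48089 in TPA, and that of 7 tapetum genes was 3174 to 4781 in PMA, 18424 to 19944 in MA, 108456 to 116155 in SCP and 215 to 374 in TPA. That of 4 meiocyte genes was 8140 to 9804 in PMA, 3986 to 4211 in MA, 150.1 to 384 in SCP and 82.6 to 130.2 in TPA. The lower sum in MA than in PMA came mostly from MEL1 (means 7716 in PMA, 57.1 in MA), and less from DMC1A (569, 457). PAIR2 went the other way (621 in PMA, 3558 in MA), and PAIR1 averaged 12.5 and 14.4. The tapetum sum rose from MA to SCP mostly through CYP703A3 (means 7790, 45341), C6 (36.4, 31319) and AP25 (270, 19227). TIP2 fell (5826, 488), and TDR averaged 4133 and 4311. These were whole anthers, so fewer cells of a type and less RNA per cell cannot be told apart.

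CPK2, CPK6, CPK21, CPK22 and CPK29 had their highest level in TPA, which the choice of the genes as kinases of pollen already holds, while CPK23 had its highest in SCP and its lowest in TPA. TPA was the highest stage of 54.2% of all rice probe sets, and of 29.7% of the 28630 with a stage mean over 10. CPK2, CPK6 and CPK29 were over 20 in TPA and at or under 10 on average in every other stage, as were 1363 of the 57258 rice probe sets (2.38%) in all. CPK22 and CPK21 had a signal over 10 in at least 1 earlier stage as well, and CPK23 was over 10 on all 12 arrays.

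**Figure D1:**
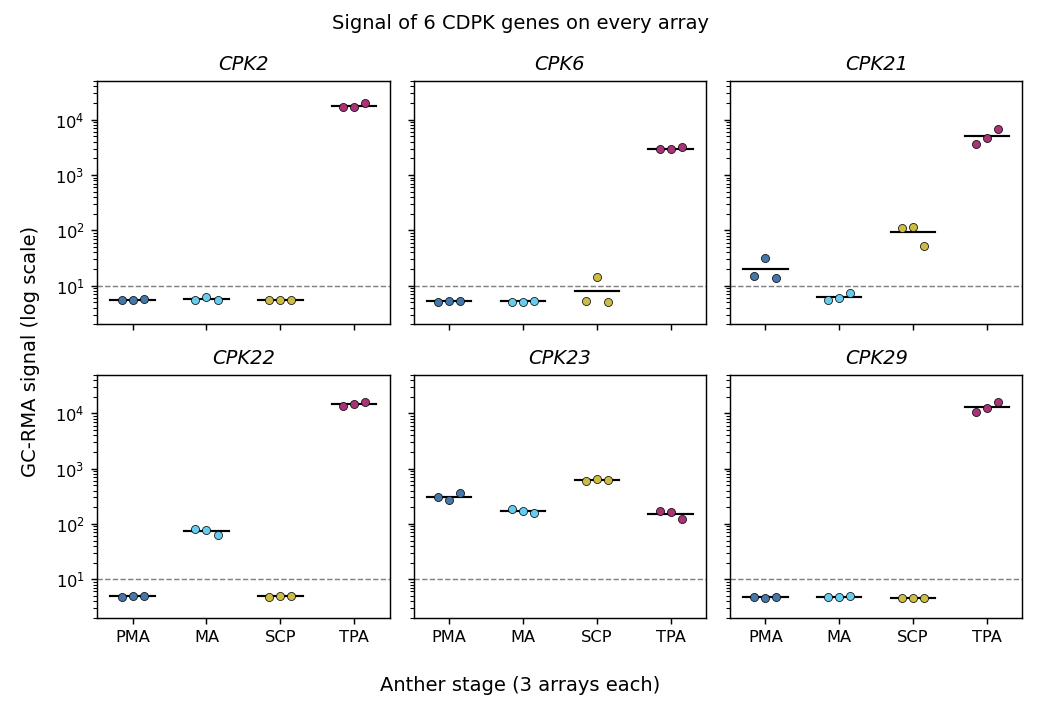
GC-RMA signal (log scale) of the 6 kinase genes on each of the 12 arrays, by anther stage. Points are arrays, black lines are stage means and the dashed line is the background limit of 10. CPK2, CPK6, CPK21, CPK22 and CPK29 lie between 2898 and 19730.4 in TPA, and CPK23 lies below 169 there.

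CPK2 read 5.54, 5.53 and 5.62 on the 3 PMA arrays, 5.57, 6.28 and 5.59 in MA, 5.48, 5.52 and 5.55 in SCP, and 17216, 16970.3 and 19730.4 in TPA. All 9 earlier arrays were thus in the background, and the 3 TPA arrays had a coefficient of variation of 8.5%. TPA was therefore at least 1793-fold higher than the earlier stages, or at least 10.81 in log2. The name CPK2 is also a synonym of the gene listed as CPK19, and the gene whose synonyms hold OsCPK2 itself was used. Under the other reading the values are those of CPK19, which were 781 to 1573 on all 12 arrays.

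CPK29 had the same shape. It read 4.71, 4.66 and 4.72 in PMA, 4.67, 4.7 and 4.95 in MA, 4.63, 4.62 and 4.64 in SCP, and 10596, 12259.6 and 16026 in TPA. Its TPA arrays spread more than those of CPK2, with a coefficient of variation of 21.5%. TPA was at least 1277-fold higher than the earlier stages, whose arrays were all in the background. In log2 this bound was 10.32.

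CPK6 was read at 5.11, 5.2 and 5.21 in PMA, 5.14, 5.13 and 5.23 in MA, 5.21, 14.1 and 5.1 in SCP, and 2936, 2898 and 3196 in TPA. The single value above background before TPA was SCP replicate 2. Its TPA arrays were the closest of the 6 genes, with a coefficient of variation of 5.39%. TPA was at least 301-fold higher than PMA and MA, whose arrays were all in the background. With signals under 10 set to 10, TPA minus SCP was 8.07 in log2 (standard error 0.12). A second probe set paired with CPK6 read 5.36 to 6.18 on all 12 arrays, TPA included, so the 2 probe sets disagree and the TPA signal was seen with the brighter one only. Among 1648 probe sets over 20 in TPA and at or under 10 in PMA and MA, 32 exceeded 10 in SCP replicate 2 alone, 36 in SCP replicate 1 alone and 29 in SCP replicate 3 alone.

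CPK22 was in the background in PMA and SCP, but not in MA. It read 4.81, 4.95 and 5.04 in PMA, 80.8, 76.9 and 61.9 in MA, 4.86, 4.88 and 4.91 in SCP, and 13418, 14436 and 15858 in TPA. Each MA array was above every PMA and SCP array, which were all in the background, and the MA mean was 0.503% of the TPA mean. MA was at least 7.27-fold higher than PMA and SCP, and TPA was at least 1454-fold higher than PMA and SCP. TPA minus MA was 7.64 in log2 (standard error 0.10).

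Such a return to background between MA and TPA was uncommon. Of 1468 probe sets over 20 in TPA and at or under 10 in PMA and SCP, 42 (2.86%) were over 20 in MA. The pollen expansin EXPB9 was another, with 63.9, 85.2 and 60.0 in MA, while EXPB10 and MST5 averaged 4.18 and 5.59 there. The MA arrays were run by another person than the other stages, so person and MA stage cannot be told apart, and the part of pollen RNA in the CPK22 signal in MA was not tested.

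CPK21, which raises salt tolerance when overexpressed in rice, had stage means that fell in the order TPA, SCP, PMA and MA. It read 15.2, 31.9 and 14.02 in PMA, 5.43, 5.93 and 7.37 in MA, 111, 114 and 52.4 in SCP, and 3597, 4690.3 and 6689 in TPA. All MA arrays were in the background. No arrays overlapped between any stages, but the share of all probe sets without overlap was not counted, so nothing is read from this. MA was at least 1.89-fold lower than PMA, a difference that was not called, and SCP was at least 8.73-fold higher than MA. The call in SCP against PMA was lost in 12 of 23 alternative settings. SCP minus PMA was 2.20 and TPA minus SCP was 5.79 in log2, each with a standard error of 0.41. The gene was the most variable of the 6 in TPA, with a coefficient of variation of 31.4%, and its SCP mean of 92.5 already stood at 1.85% of the TPA mean.

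CPK23 went against the label. The gene is also known as SPK, a kinase of immature rice seeds that phosphorylates sucrose synthase. It read 304, 276 and 357 in PMA, 184, 172 and 154 in MA, 600.0, 650.1 and 616 in SCP, and 168, 165 and 125 in TPA. The order was SCP, PMA and then MA and TPA, whose arrays overlapped. In log2, MA minus PMA was -0.87, SCP minus MA was 1.87, SCP minus PMA was 1.00, TPA minus SCP was -2.04 and TPA minus PMA was -1.04, each with a standard error of 0.13. Its TPA mean of 153 was 24.6% of its SCP mean of 622, and it was the only member that was lower in TPA than in SCP.

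**Figure D2:**
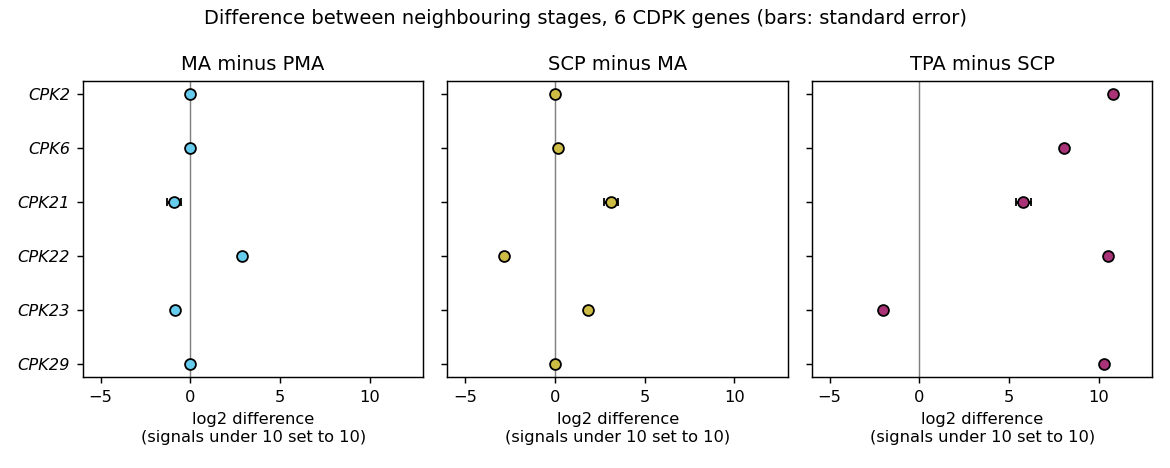
Difference in mean log2 signal between neighbouring stages for the 6 kinase genes (x axis), with the standard error of the fit as bars. Signals under 10 were set to 10, so a point is a lower bound of the difference where 1 stage is in the background, and 0 where both are. In TPA minus SCP CPK23 lies at -2.04 while the other members lie between 5.79 and 10.81.

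The choice of the genes bears on the counts of members called, so the counts are given as a description and nothing is read from them. Called at an adjusted p of 0.005 or less and at least 2-fold over all 57258 probe sets, MA against PMA had 1 member higher (CPK22) and 0 lower, where 3.31% of all probe sets were called higher and 3.03% lower. SCP against MA had 2 higher (CPK21, CPK23) and 1 lower (CPK22), beside 3.85% and 4.47%. SCP against PMA had 2 higher (CPK21, CPK23) and 0 lower, beside 5.18% and 6.55%. TPA against SCP had 5 higher and 1 lower, beside 8.21% and 14.9%, and TPA against PMA likewise 5 higher and 1 lower, beside 8.58% and 16.0%. The 1 lower in TPA against PMA was CPK23, whose difference of -1.04 was -0.32 after the arrays were shifted to a common median and -0.54 after quantile normalization, both with 0 members lower. Over the 6 genes the median of TPA minus SCP was 10.07 in log2, and 9.19 with signals under 10 set to 10, and over all probe sets it was 0.04.

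Among themselves, CPK2 and CPK29 had the closest patterns, with r of 0.9998 between log2 signals over the 12 arrays, and CPK21 and CPK22 had the least close of the 5 TPA-high genes, with r of 0.765. CPK23 ran against the others, with r of -0.238 to -0.765. These values describe 4 stages of 3 arrays, background signals included, and are set largely by the jump at TPA. None of the 6 genes neighboured another CDPK gene in the RefSeq annotation of japonica rice. Of genes with a symbol in the probe table and a 2-fold range over stages (62 genes, 61 for CPK23), ACA1, an autoinhibited calcium pump, was the most like CPK6 (r 0.995), CPK2 and CPK29 (0.985), CPK21 (0.958) and CPK22 (0.906). The next were the gibberellin synthesis gene GA20OX3 for CPK2 (0.898), CPK6 (0.906), CPK21 (0.868) and CPK29 (0.895), cob for CPK22 (0.878), and then SPO11-3 for CPK2 (0.833), CPK22 (0.877) and CPK29 (0.832) and IRX9L for CPK6 (0.829) and CPK21 (0.830). Those most like CPK23 were DCD1 (0.929), IRX14 (0.857) and KIN4A (0.828).

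Over a wider set of 1870 genes named through synonyms, taken after seeing that the first set was small, closer patterns were found. Those most like CPK2 were AldC-alpha, also named FBA2 (r 0.99995), CML11 (0.99992) and EXPB10 (0.99991), and those most like CPK29 were the CBL-interacting kinase gene CIPK30 (0.99998), OsSPPL3 (0.99989) and MADS27 (0.99985). EXPB9 was the most like CPK22 (0.998), OsTIFY8 the most like CPK6 (0.998), OsC3H63 the most like CPK21 (0.988) and rab25 the most like CPK23 (0.965). Like CPK22, EXPB9 had its second highest level in MA.

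Of the rest of the family 14 genes were measured, and TPA was the highest stage of 0 and the lowest stage of 9 of them. Of rice probe sets with a stage mean over 10, TPA was the highest stage of 29.7% and the lowest of 45.1%. A further 4, CPK11, CPK14, CPK25 and CPK28, were matched to a gene but to no probe set of their own. Of the 14 genes, 12 were over 10 on every array, CPK12 was in the background on all of them (6.01 to 7.03), and CPK9 was in the background in PMA and MA. Since the 6 genes had been taken out for their signal, the 14 are what was left, and their counts are read beside the share of all probe sets only.

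**Figure D3:**
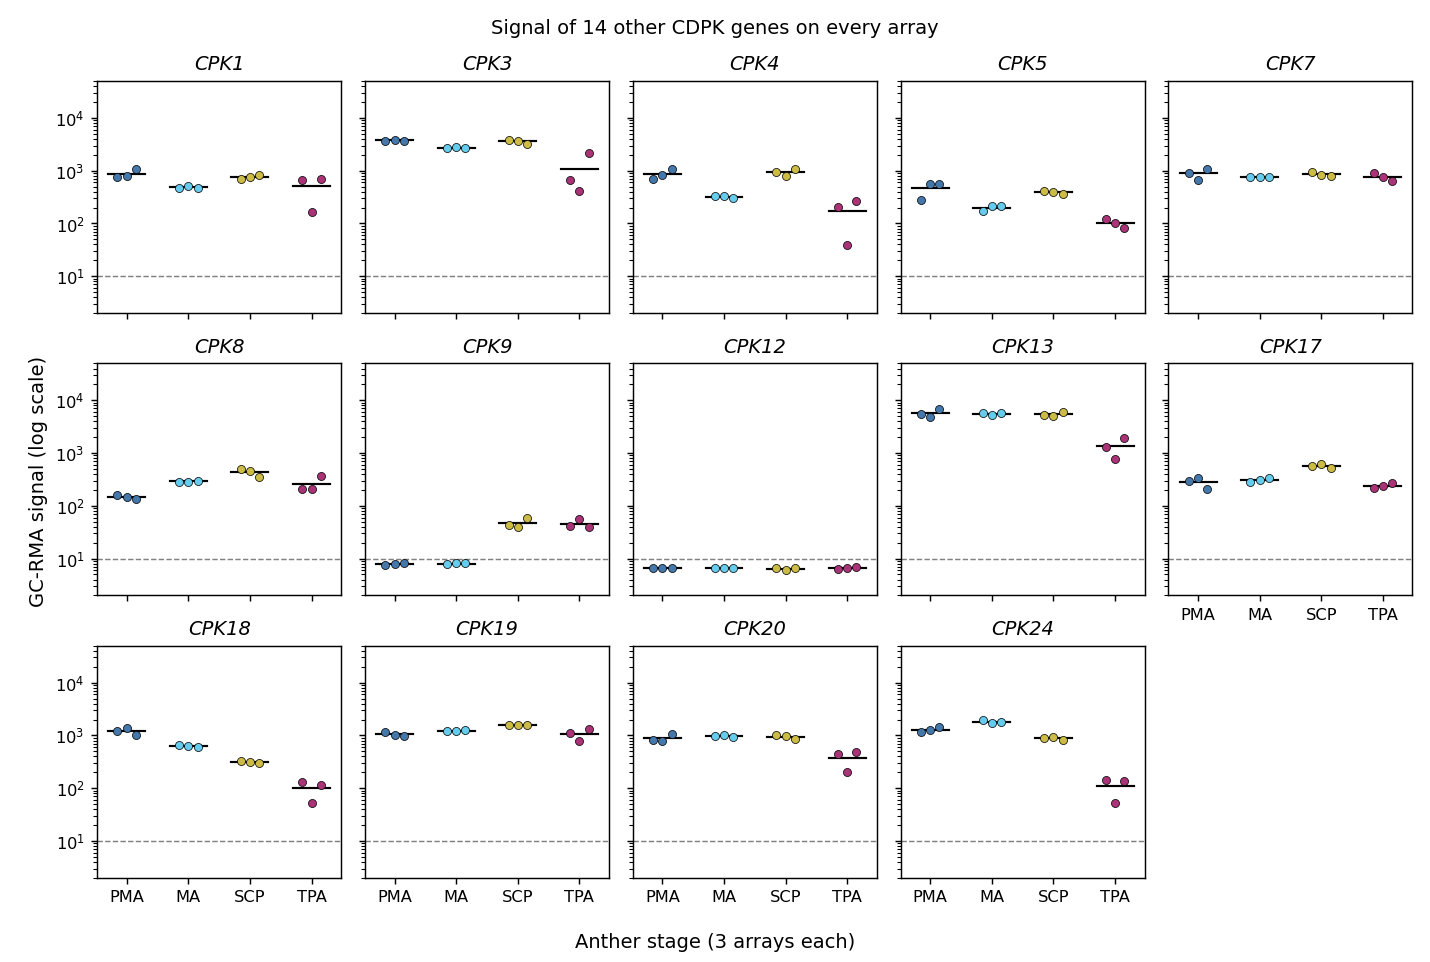
GC-RMA signal (log scale) of the 14 other CDPK genes on each of the 12 arrays, drawn as for the 6 genes. No gene has its highest mean in TPA, and CPK4 and CPK24 show the low TPA replicate 2.

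In TPA against SCP, 7 of the 14 genes were called lower and 0 higher, beside 14.9% and 8.21% of all probe sets, and their median difference was -1.33 in log2. Of the 14 genes, 13 had a stage mean over 10. Among the 28630 rice probe sets with such a mean, fitted alone, 9178 were called lower and 4973 higher. At an unadjusted p under 0.05, 10 were lower and 0 higher. Shares over all probe sets at an unadjusted p were not counted here or below, so nothing is read from such counts. An equal-variance t-test under the same limits called 2 lower and 0 higher, beside 3946 lower and 3023 higher of the 57258 probe sets. CPK24, a kinase of the cold response, read 145, 53.2 and 135 in TPA, against 913, 921 and 811 in SCP. It fell by 3.12 in log2 (standard error 0.33, adjusted p = 4.78e-05, limma), and no arrays overlapped. CPK13, which raises tolerance to cold and salt when overexpressed, read 1277, 788 and 1971 in TPA, against 5166, 5049 and 5998 in SCP, and fell by 2.10 (standard error 0.28, adjusted p = 0.000249). CPK5 fell by 1.94 (standard error 0.26, adjusted p = 0.000227) and was the one of the 7 that no alternative setting lost. CPK18, a kinase of defence signalling, fell by 1.76 (adjusted p = 0.000853) and CPK17, a kinase of the cold response, by 1.23 (adjusted p = 0.000316). A second CPK18 probe set averaged 10.6 in SCP and 7.26 in TPA. With the mean of both probe sets the CPK18 difference was -1.15, and its call was lost.

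The other calls were the weakest. CPK4, which raises salt and drought tolerance when overexpressed, fell by 2.84 (standard error 0.61, adjusted p = 0.00406) and CPK20 by 1.43 (standard error 0.30, adjusted p = 0.00334), and each call was lost in 14 of 22 alternative settings. For CPK4 these included leaving out any 1 of the 9 PMA, MA and SCP arrays, and for CPK20 any of them but PMA replicate 3. Neither gene entered a further setting, which kept only probe sets called by an analysis of variance over the 4 stages. CPK1, CPK3, CPK7, CPK8, CPK9, CPK12 and CPK19 were not called, with differences of -2.09 (CPK3, adjusted p = 0.00598) to -0.04 (CPK9) where they could be measured, since CPK12 was in the background. After the arrays were shifted to a common median, 5 of the 14 were called lower and 0 higher. CPK17 and CPK20 were then not called.

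CPK9, known to act in drought tolerance and fertility, was the 1 other CDPK gene that appeared during the series. It read 7.64, 8.07 and 8.18 in PMA, 7.77, 8.1 and 8.13 in MA, 43.2, 39.9 and 57.6 in SCP, and 41.0, 57.1 and 39.3 in TPA. SCP was at least 4.63-fold higher than MA (adjusted p = 7.50e-06), the only such call among the 14 genes, beside 3.85% of all probe sets, with 0 called lower beside 4.47%. At an unadjusted p under 0.05 there were 6 higher and 2 lower. The t-test called 2 higher and 1 lower, beside 1541 and 1941 of the 57258 probe sets. TPA minus SCP was -0.04. In TPA against PMA CPK9 was again the 1 gene called higher (at least 4.51-fold, adjusted p = 1.51e-06), beside 8.58% of all probe sets, and CPK5, CPK13, CPK18 and CPK24 were called lower, beside 16.0%. At an unadjusted p under 0.05 there were 2 higher and 7 lower. The t-test called 1 higher and 0 lower, beside 2810 and 4010 of the 57258 probe sets. Between MA and PMA 0 of the 14 genes were called in either direction by limma, beside 3.31% and 3.03%. The t-test also called 0, beside 903 higher and 443 lower of the 57258 probe sets. At an unadjusted p under 0.05, 1 was higher and 2 were lower. CPK5 (-1.17, adjusted p = 0.0129) and CPK8 (0.97, adjusted p = 0.0165) came nearest. In SCP against PMA, 3 of the 14 were called higher and 1 lower, beside 5.18% and 6.55%, and 4 were higher and 1 lower at an unadjusted p under 0.05. CPK9 was at least 4.63-fold higher (adjusted p = 5.60e-06). CPK8 read 492, 457 and 347 in SCP, against 162, 148 and 133 in PMA (1.53, adjusted p = 0.000894), and CPK17 rose by 1.04 (adjusted p = 0.00177). CPK18 read 331, 312 and 299 in SCP, against 1240.2, 1370 and 1034 in PMA, and fell by 1.94 (adjusted p = 0.000942).

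Spread of the TPA arrays is given as a description only. The 6 genes were chosen by their signal and the 14 are what was left, so their TPA levels differ. The coefficient of variation over all probe sets was not computed, and the part of signal level in it was not tested. The median coefficient of variation in TPA was 12.2% over the 6 genes and 38.4% over the 14, and 8 of the 14 exceeded the 31.4% of CPK21. TPA replicate 2 was the lowest of the 3 TPA arrays in 2 of the 6 genes and in 9 of the 14. CPK1 read 665, 168 and 709 and CPK4 read 209, 39.5 and 268 in TPA. Over all probe sets above 10 in TPA, 35.5% were lowest in replicate 2. The green tissue genes CAB2R and RBCS together summed to 152 to 1019.8 in TPA, with CAB2R at 959, 49.8 and 383, and their part in the spread of the kinases was not tested.

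**Figure D4:**
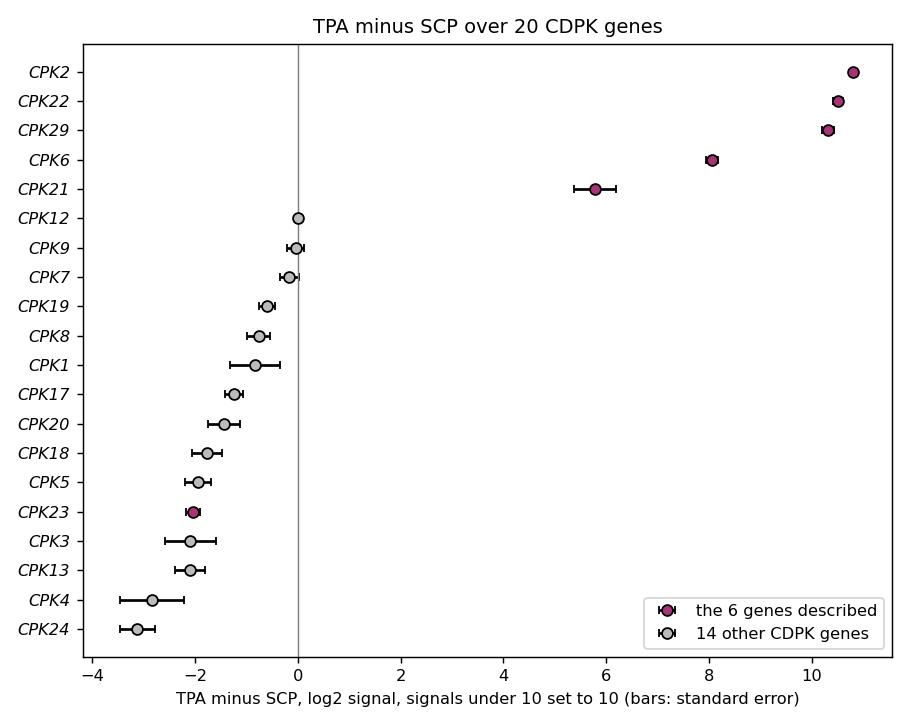
TPA minus SCP in mean log2 signal for 20 CDPK genes, with the standard error of the fit as bars and signals under 10 set to 10, so that points of genes in the background in SCP are lower bounds. CPK2, CPK22, CPK29, CPK6 and CPK21 lie at 5.79 or more, and CPK23 lies among the 14 other genes, which run from 0 to -3.12.

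Around the CDPKs, 82 genes of other calcium signalling lists were measured, and 21 were called higher and 22 lower in TPA against SCP. Over all probe sets 4701 (8.21%) were called higher and 8549 (14.9%) lower, and each list below is to be read beside these shares. After the shift to a common median, which moved the median of all probe sets to 0.64, the counts were 8166 and 6216. Most calls were then higher. For the 82 genes the split after the shift was 30 higher and 13 lower. No call of these genes changed sign in any setting tried.

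CBL proteins bind calcium and hand the signal to CIPK kinases. Of 7 CBL genes 2 were called higher, CBL4 at 213, 419.8 and 1089 in TPA, against 11.2, 9.14 and 6.96 in SCP (5.47 with signals under 10 set to 10, adjusted p = 1.21e-05), and CBL9 (3.71, adjusted p = 6.62e-06). CBL2 (-1.07) and CBL3 (-1.33) were called lower, and neither was after the shift. CBL2 was not called without TPA replicate 2 either. Of 24 CIPK genes 7 were called higher and 4 lower. CIPK30 read 4875, 5367 and 6663 in TPA, against 4.02, 4.01 and 4.02 in SCP (at least 559-fold higher, adjusted p = 9.99e-13), and CIPK20 was at least 478-fold higher (adjusted p = 8.81e-14). CIPK21 fell by 6.05 with signals under 10 set to 10 (adjusted p = 5.31e-05), with TPA replicate 2 in the background, and CIPK17 by 2.55 (adjusted p = 0.0047). The CIPK17 call was lost in 16 of 23 settings.

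Calmodulin and calmodulin-like proteins are calcium sensors without a kinase domain. Of 26 measured, 8 were called higher and 4 lower. CML28 read 6480.2, 6495 and 6265 in TPA, against 5.13, 5.12 and 5.14 in SCP (at least 641-fold higher, adjusted p = 4.97e-18). CML1 was at least 378-fold higher (adjusted p = 1.12e-06), but its TPA arrays read 7526, 1284 and 5582. CML14 was in the background in TPA and at least 38.4-fold lower there (adjusted p = 6.53e-08), and CML30 fell by 2.59 (adjusted p = 0.000201).

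**Figure D5:**
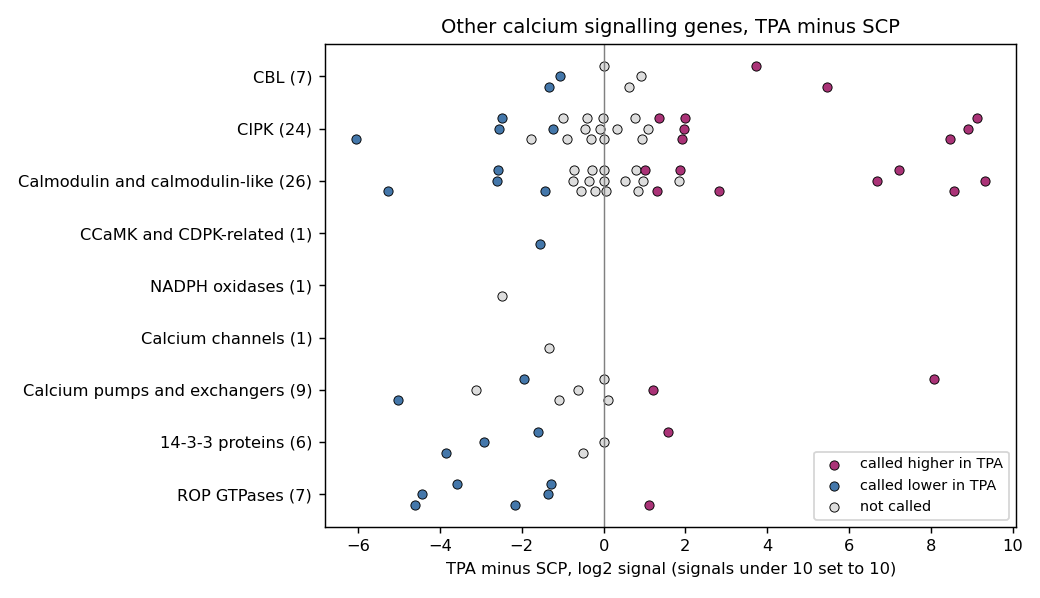
TPA minus SCP in mean log2 signal for the 82 genes of 9 other calcium signalling lists, 1 point per gene and signals under 10 set to 10, with the number of genes measured after each list name. Points at 8 and above are CIPK, calmodulin-like and pump genes, and 6 of the 7 ROP GTPases lie below 0.

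Pumps and exchangers take calcium out of the cytosol, and of 9 measured 2 were called higher and 2 lower. ACA1 read 3507, 3875 and 3071 in TPA, against 10.2, 20.8 and 4.63 in SCP (8.07 with signals under 10 set to 10, adjusted p = 3.50e-07), and CAX2 rose by 1.21 (adjusted p = 7.78e-05). CAX3, a vacuolar exchanger, read 322, 263 and 532 in TPA, against 11453, 11409 and 11838 in SCP (-5.02, adjusted p = 1.26e-07), and ACA10 fell by 1.93 (adjusted p = 4.65e-06).

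ROP GTPases, molecular switches that steer tip growth, were called lower in 6 of 7 cases, led by RAC7 (-4.62, adjusted p = 1.46e-07) and RAC1 (-4.44, adjusted p = 3.49e-06). The RAC5 call (-1.36) was lost in 16 of 23 settings, among them without any 1 PMA, MA or SCP array or without TPA replicate 2, and the RAC2 call (-1.38) in 5. RAC6 was the one called higher (1.11, adjusted p = 3.26e-06) and was not called after quantile normalization (0.92). After the shift to a common median 4 of the 7 were called lower. Of 6 14-3-3 genes, whose proteins bind phosphorylated targets, GF14D was called higher (1.57, adjusted p = 5.72e-08) and 3 were called lower, led by GF14G (-3.86 with signals under 10 set to 10) and GF14B (-2.92). The symbiosis kinase CCAMK fell by 1.54 (adjusted p = 2.21e-05), a call lost after the shift and with the mean of its probe sets (-0.84). Its second probe set was in the background on all arrays. The NADPH oxidase gene RBOHB and the vacuolar channel gene TPC1 were not called.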

How the data were processed

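The authors hybridised labelled RNA of whole anthers to the Affymetrix rice array, and deposited GC-RMA normalized intensity values on a linear scale; the methods name ArrayAssist, and normalization was done together with arrays of other tissues. The background limit follows the study's use of fungal probe sets. Of 57381 probe sets 123 controls were left out. Log2 values of all 12 arrays entered 1 model in limma 3.58.1 (R 4.3.3, lmFit and eBayes), with 8 residual degrees of freedom, with Benjamini-Hochberg adjustment over 57258 rice probe sets. A gene was called at an adjusted p of 0.005 or less and at least 2-fold, after the limits of the methods. The fit was also run on simulated data in which only a small set of probe sets changed in TPA. TPA differed far more broadly on these arrays, so that run does not check the TPA contrasts. The number of arrays limits the precision. Each "at least" fold sets the geometric mean of the brighter stage against the background limit; its adjusted p is that of the model on all values.

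The 6 genes and all gene lists were chosen with earlier results of these data known. Tests of the 6 genes had been planned for contrasts without TPA. Since the label of pollen also covers SCP, the calls of members are given by count and name as a description, without p-values. Genes were named through GEO's platform annotation and the synonyms of the RefSeq annotation ASM3414082v1: 22436 probe sets were paired with 1 gene and 95 with several, which were not used. Of each list the text names the 2 largest rises and the 2 largest falls among those called in TPA against SCP, every CDPK gene, and for each of the 6 genes the 3 most alike by Pearson's r among symbols of the platform annotation; some array values and single genes beyond these were chosen after they were seen. No sperm cell marker was matched. No annexin, CDPK-related kinase or cyclic nucleotide-gated channel was matched by name.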

Additional observations from a re-analysis of the deposited data

How the results depend on the processing

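No called difference of the 6 genes turned in sign (0 of 529 values). These values include contrasts with TPA, whose sign the choice of the genes largely fixed, so nothing is read from this. The balance of higher and lower calls over all probe sets did turn after the shift to a common median. TPA against PMA had 4914 higher and 9167 lower calls, and 9576 and 6666 after the shift (5693 and 7778 after quantile normalization). Counts of called members moved by over 1.5 times in 2 of the 3 comparisons without TPA; in the other, SCP against MA, 3 became 2 with the t-test. For MA against PMA 1 member became 2 with array weights and 2 at an adjusted p of 0.05, and for SCP against PMA 2 became 1 with only the 2 stages in the fit, 1 with the replicate number as a block (replicate block), 0 with an equal-variance t-test, and 0 to 2 when 1 array was left out. There CPK21 was lost without any 1 array other than PMA replicate 2, SCP replicate 3 and TPA replicate 3, and CPK23 without PMA replicate 1, PMA replicate 2 or SCP replicate 2. The median of TPA minus SCP over the 6 genes (10.07) was 10.66 after the shift to a common median, 9.19 with values under 10 set to 10, 8.61 with the mean of all probe sets of a gene, and 9.94 to 10.31 when 1 array was left out. Of 414 values of single members in contrasts without TPA, 395 kept their side of the limits, 17 lost a call and 2 gained one.

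For the 14 other CDPK genes, lower calls in MA against PMA (0) were 1 with only probe sets over 10, 1 at an adjusted p of 0.05, and 0 to 1 with 1 array left out (1 without PMA replicate 1 and 1 without TPA replicate 2). In SCP against MA the 1 higher and 0 lower became 2 and 1 with only 2 stages in the fit, 2 and 1 with the t-test, 3 and 1 with array weights, and 1 to 2 and 0 to 1 with 1 array left out (2 and 1 without TPA replicate 2). In SCP against PMA the 3 higher became 1 with the t-test, and were 2 to 3 with 1 array left out. The 7 lower in TPA against SCP became 2 with only 2 stages and 2 with the t-test. In TPA against PMA the 1 higher became 2 with quantile normalization and 2 after the shift, and the 4 lower became 7 with only probe sets over 10, 2 with only 2 stages, 0 with the t-test, 7 with array weights, 7 at an adjusted p of 0.05, and 4 to 7 with 1 array left out (7 without TPA replicate 3). In the calcium lists, 21 higher and 22 lower became 13 and 14 with the t-test, and the lower became 13 after the shift.

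Over all probe sets the calls moved to 1346 (t-test) and 5470 (adjusted p of 0.05) against 3630 in MA against PMA, to 7295 (array weights) against 4764 in SCP against MA, to 4321 (only 2 stages) and 2060 (t-test) against 6717 in SCP against PMA, to 8810 (only 2 stages) and 6969 (t-test) against 13250 in TPA against SCP, and to 6820 (t-test) against 14081 in TPA against PMA. Fits of fewer arrays have fewer degrees of freedom; the cause of the other moves was not tested. Deviations of arrays with the same replicate number correlated weakly (correlations of -0.06 to 0.10, 1 of 18 over 0.1). Whether the numbers pair the arrays cannot be told from this, and the main model did not pair them. Signals at or under 10 hold no order, so a fold against a stage in the background is a lower bound.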
